A study of Mus musculus with 22 samples.

Results

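A group of 10 genes from the TGF-β, BMP and Notch pathways was followed through the H3K27ac landscape of mouse Kupffer cells: the receptors *Tgfbr1*, *Tgfbr2*, *Acvrl1* and *Notch2*, the SMAD genes *Smad3*, *Smad4*, *Smad6* and *Smad7*, the Notch effector *Rbpj* and the Notch target *Hes1*. Their windows were all those that the deposited annotation assigned to one of the genes as the nearest start site, which gave 191 of 96381 windows of 1000 bp in the parental strains and 408 of 217456 regions of 200 bp in the F1 hybrid. H3K27ac is a histone mark of active promoters and enhancers, and Kupffer cells are the resident macrophages of the liver sinusoids.

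Sinusoidal endothelial cells and stellate cells form the niche that gives macrophages in the liver their Kupffer identity. Endothelial Dll4 activates Notch receptors, whose cleaved intracellular part joins RBPJ on DNA and induces genes such as *Hes1*. TGF-β binds TGFBR2, which phosphorylates the type I receptor TGFBR1, and that receptor activates SMAD2 and SMAD3. Circulating and local BMP ligands signal through type I receptors such as ALK1, the product of *Acvrl1*. SMAD4 is the shared partner of the activated SMADs in both branches, and SMAD6 and SMAD7 inhibit them.

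The cells came from untreated (Control) males, 8 to 12 weeks old, of the inbred strains A/J and BALB/cJ, of the inbred strain C57BL/6J, and of CB6F1/J, the F1 hybrid of C57BL/6J and BALB/cJ. Kupffer cells were sorted from digested livers, with flavopiridol present to limit transcriptional change during digestion, and each strain and the hybrid had 3 H3K27ac libraries. Input libraries (3 from A/J, 3 from BALB/cJ and 1 from C57BL/6J) were used for description only. They entered no test, and counts were not corrected for them. The labels number the replicates without saying that each came from a separate mouse, so p-values measure the spread between these libraries. Window totals were 2291426 to 12980348 counts per parental library, with replicate 2 the shallowest in every strain, and 182654 to 400681 counts that could be assigned to an allele per column in the hybrid. Over the window nearest the start site of each of 8 Kupffer cell marker genes the summed normalized count was 841 to 947 in A/J and 977 to 1028 in BALB/cJ, against 1027 to 1497 in C57BL/6J. The summed count at 8 sinusoidal endothelial marker genes was 86 to 98.6 in A/J, 92.7 to 126 in BALB/cJ and 66.8 to 94.6 in C57BL/6J. *Pecam1* was the highest of them, with A/J at a mean of 44.2, BALB/cJ at 53 and C57BL/6J at 43.7. In the same order, *Cdh5* had means of 19.3, 23.4 and 13.4, and *Lyve1* of 10.5, 13.4 and 9.51. *Kdr*, *Tek*, *Clec4g*, *Stab2* and *Oit3* were each at a mean of 5.77 or less in every strain. In sorted bulk cells, a smaller share of marked cells and less of the mark per cell cannot be told apart.

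Of the 191 windows, 140 had a mean normalized count (a count scaled to a common library size) above 16 and were tested among 60387 windows in all. A window was called at an adjusted p under 0.05 with an absolute log2 fold change above 1, by edgeR's quasi-likelihood test with Benjamini-Hochberg adjustment over all windows tested. In the comparison of A/J with BALB/cJ, 2 of the 140 windows were called, against 3.63% of all windows tested. In the comparison of A/J with C57BL/6J, 18 were called, against 7.09% of all windows, and in that of BALB/cJ with C57BL/6J 20 were called, against 8.56%. Of the 25 windows called at least once, 19 belonged to *Tgfbr2*, 3 to *Smad6*, 2 to *Notch2* and 1 to *Smad7*. Outside *Tgfbr2*, calls came to 2 of 94 windows for A/J over BALB/cJ (2.13%), 3 for A/J over C57BL/6J (3.19%) and 2 for the remaining comparison (2.13%).

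The 5 stretches of reference sequence show what lies under the differences described below: the 2 *Tgfbr2* windows with the largest strain differences, and, from genes whose calls rested on single libraries, the called *Smad6* window farthest into that gene and both called *Notch2* windows. Each is the central 300 bases of its window on the plus strand of GRCm38 (mm10), the C57BL/6J reference, taken from RefSeq's assembly, and capitals mark matches to the motifs searched. The motifs, sought on both strands, were RBPJ (TGGGAA), the SMAD box (CAGAC), a SMAD palindrome (GTCTAGAC), a BMP-SMAD element (GGCGCC), PU.1 (GAGGAAGT) and AP-1 (TGANTCA).
Tgfbr2 at 18631 bp, chr9:116156583-116156882: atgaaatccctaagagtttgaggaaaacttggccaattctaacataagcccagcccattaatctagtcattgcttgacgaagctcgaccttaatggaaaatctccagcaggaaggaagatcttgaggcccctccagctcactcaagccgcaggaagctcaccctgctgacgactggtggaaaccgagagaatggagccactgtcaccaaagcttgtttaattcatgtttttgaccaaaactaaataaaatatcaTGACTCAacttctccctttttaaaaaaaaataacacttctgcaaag
Tgfbr2 at 63535 bp, chr9:116111679-116111978: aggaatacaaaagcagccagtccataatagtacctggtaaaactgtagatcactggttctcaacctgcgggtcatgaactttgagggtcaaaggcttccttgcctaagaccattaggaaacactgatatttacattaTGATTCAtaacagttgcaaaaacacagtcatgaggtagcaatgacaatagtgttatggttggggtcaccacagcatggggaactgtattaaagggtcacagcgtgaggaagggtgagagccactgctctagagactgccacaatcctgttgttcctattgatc
Smad6 at 47243 bp, chr9:63974667-63974966: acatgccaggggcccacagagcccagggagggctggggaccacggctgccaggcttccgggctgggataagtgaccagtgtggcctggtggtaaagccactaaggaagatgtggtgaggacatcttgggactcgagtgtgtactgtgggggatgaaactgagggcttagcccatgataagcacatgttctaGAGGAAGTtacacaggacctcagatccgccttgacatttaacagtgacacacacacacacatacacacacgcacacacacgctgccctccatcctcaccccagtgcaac
Notch2 at 43610 bp, chr3:98056999-98057298: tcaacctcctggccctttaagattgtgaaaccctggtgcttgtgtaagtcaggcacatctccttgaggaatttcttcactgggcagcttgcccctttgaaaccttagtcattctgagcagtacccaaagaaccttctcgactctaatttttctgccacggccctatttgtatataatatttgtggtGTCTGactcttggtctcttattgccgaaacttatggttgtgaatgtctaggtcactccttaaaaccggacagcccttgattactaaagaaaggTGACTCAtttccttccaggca
Notch2 at 53113 bp, chr3:98066502-98066801: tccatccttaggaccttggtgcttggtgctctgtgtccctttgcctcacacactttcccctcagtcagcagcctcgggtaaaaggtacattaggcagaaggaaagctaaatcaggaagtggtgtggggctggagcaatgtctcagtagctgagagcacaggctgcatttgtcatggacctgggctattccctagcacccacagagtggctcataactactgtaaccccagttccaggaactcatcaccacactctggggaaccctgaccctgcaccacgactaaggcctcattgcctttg
*Tgfbr2* lies on the minus strand of chromosome 9 (116087695 to 116175363), so its windows run from high to low coordinates. Its called windows from 2887 to 76603 bp are annotated as intronic. The *Tgfbr2* stretches 18631 and 63535 bp into the gene held 1 AP-1 match each (42.3% and 44.0% G and C). The *Smad6* stretch held 1 PU.1 match, the *Notch2* stretch at 43610 bp held 1 SMAD box and 1 AP-1 match, and that at 53113 bp held none of the 6 motifs. An RBPJ match was present in 6 of the 19 called *Tgfbr2* windows (31.6%) and in 26.4% of the 60325 tested windows that lie on the reference chromosomes, and a SMAD box in 10 of 19 (52.6%) against 51.7%. An AP-1 match was present in 4 of the 19 (21.1%) against 14.5%. In the 27 *Tgfbr2* windows that were not called the shares were 18.5% for RBPJ, 63.0% for the SMAD box and 22.2% for AP-1. The SMAD palindrome occurred in 0.302% of all windows and in 2 member windows, 1 of *Smad6* and 1 of *Smad7*. These are matches to letters in a reference sequence, and the variants of the other strains were not analysed here.

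*Tgfbr2*, which encodes the ligand-binding type II receptor for TGF-β, carried more H3K27ac in A/J and BALB/cJ than in C57BL/6J at windows scattered from 2887 bp inside its start site to beyond its end. Of its 46 tested windows, 15 were higher in A/J than in C57BL/6J and 18 were higher in BALB/cJ than in C57BL/6J, and none was lower in either comparison. Both comparisons, which share the C57BL/6J libraries, called 14 of these windows. Between A/J and BALB/cJ no *Tgfbr2* window was called by edgeR, 0 had an unadjusted p under 0.05, and DESeq2 called 0. The median log2 fold change over the 46 windows was 0.73 for A/J and 1.01 for BALB/cJ, both over C57BL/6J, and -0.17 for A/J over BALB/cJ, beside medians of -0.01, -0.01 and 0.01 over all windows tested.

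The largest difference was in the window 18631 bp inside the start site, in the first intron. Its normalized counts were 169, 119 and 253 in A/J and 178, 119 and 193 in BALB/cJ, against 14.7, 27.9 and 18.9 in C57BL/6J. Every A/J and BALB/cJ library lay above every C57BL/6J library. The log2 fold change was 3.24 (SE 0.32, edgeR adjusted p = 8.36e-08) for A/J over C57BL/6J and 3.08 (SE 0.32, adjusted p = 1.73e-07) for BALB/cJ over C57BL/6J. Between A/J and BALB/cJ it was 0.16 (SE 0.26, adjusted p = 0.876). The reference sequence of this window is the first of the stretches printed above.

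The window at 63535 bp, in an intron, had 42.0, 44.5 and 51.7 counts in A/J and 70.1, 82.4 and 55.5 in BALB/cJ, against 5.33, 21.0 and 7.56 in C57BL/6J. Again neither strain's libraries overlapped those of C57BL/6J. Its log2 fold change was 2.27 (SE 0.40, adjusted p = 0.000275) for A/J over C57BL/6J and 2.82 (SE 0.39, adjusted p = 1.14e-05) for BALB/cJ over C57BL/6J by edgeR. The A/J libraries also lay below the BALB/cJ libraries here, but that difference was not called (-0.55, SE 0.31, adjusted p = 0.471).

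The window at 28784 bp, also of high level, had 106, 196 and 201 counts in A/J and 122, 179 and 154 in BALB/cJ, against 49.3, 58.2 and 44.1 in C57BL/6J. The log2 fold changes were 1.74 (SE 0.28) and 1.60 (SE 0.28) over C57BL/6J, with edgeR adjusted p of 8.01e-05 for A/J and 0.000217 for BALB/cJ. The window at 76225 bp had 81.0, 65.3 and 91.8 counts in A/J and 83.6, 133 and 87.6 in BALB/cJ, against 21.3, 32.6 and 32.7 in C57BL/6J. At both sites the C57BL/6J libraries sat below all others. The remaining called windows lay between 2887 and 89735 bp from the start site, the last 2 of them beyond the end of the gene, with log2 fold changes of 1.03 to 2.23 for A/J and 1.05 to 2.05 for BALB/cJ over C57BL/6J.

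**Figure D1:**
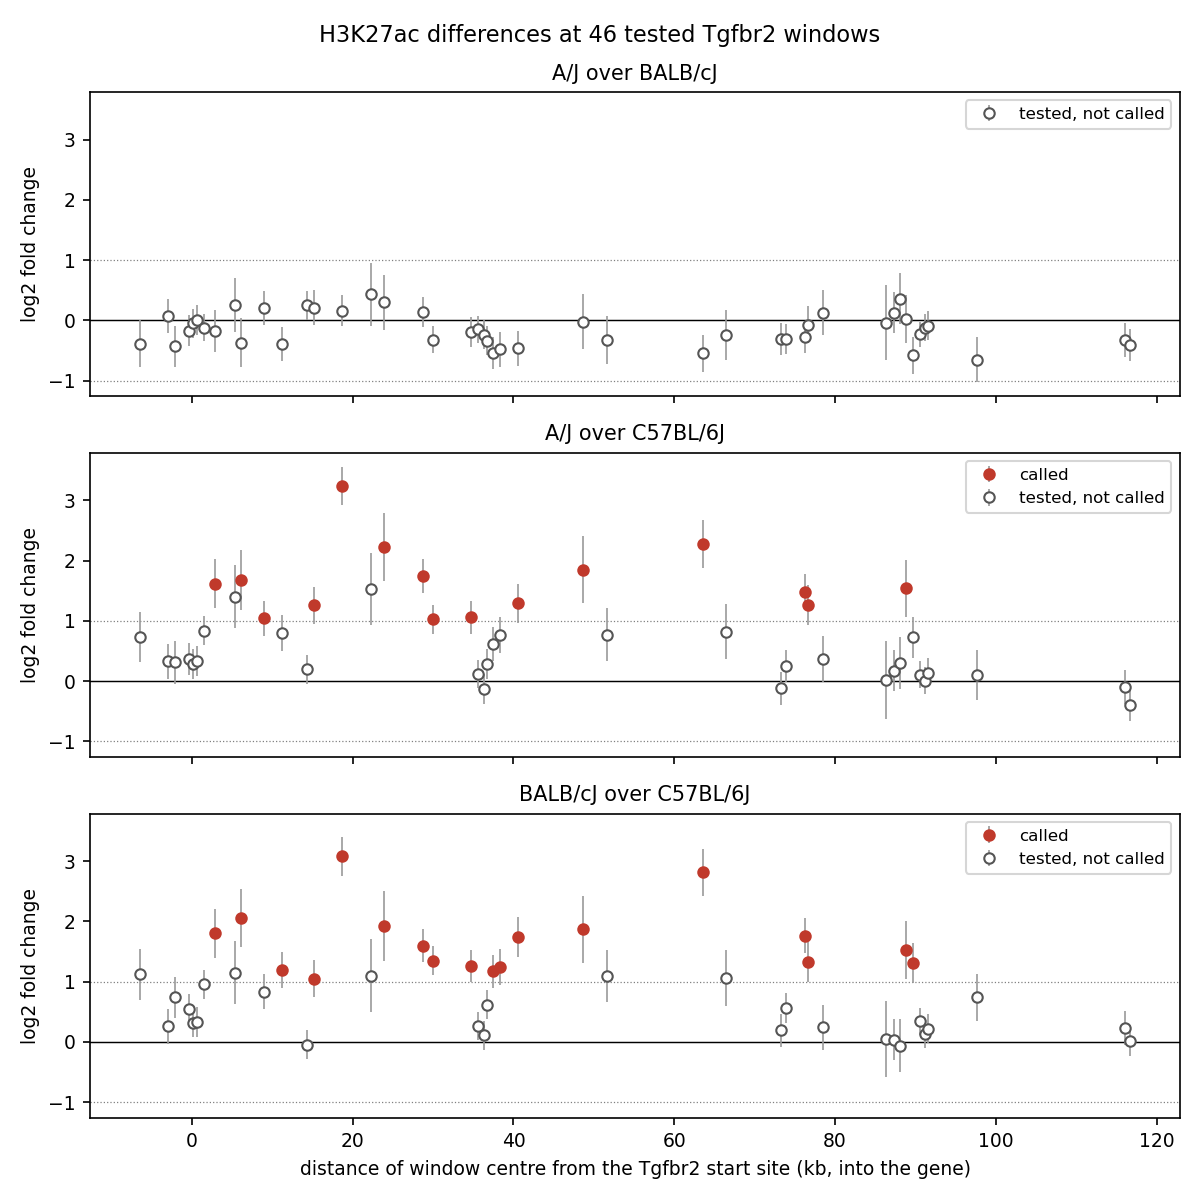
Log2 fold change of H3K27ac (y axis, with SE bars) at the 46 tested *Tgfbr2* windows against the distance of the window centre from the start site in kb (x axis), 1 panel per comparison, with called windows filled. The called windows rise to 3.24 for A/J and 3.08 for BALB/cJ over C57BL/6J at 18631 bp, and no window is called for A/J over BALB/cJ.

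The difference was not spread evenly over the locus. The window over the start site, the highest of all member windows, had 781, 667 and 851 counts in A/J and 714, 620 and 1038 in BALB/cJ, against 550, 605 and 743 in C57BL/6J. Those groups overlapped, and the log2 fold changes over C57BL/6J were 0.28 (SE 0.25, edgeR adjusted p = 0.614) for A/J and 0.32 (SE 0.24, adjusted p = 0.495) for BALB/cJ. Within the first intron the window at 14264 bp had log2 fold changes of 0.20 and -0.05, and that at 36307 bp -0.13 and 0.11, for A/J and BALB/cJ over C57BL/6J, so windows without a call lay between called ones. Windows without a call were not all flat. The log2 fold change was above 0 in 42 of the 46 windows for A/J over C57BL/6J, against 29624 of all 60387. For BALB/cJ over C57BL/6J it was 44, against 29441. The unadjusted edgeR p was under 0.05 in 22 and 28 of the 46, against 11625 and 13469 of all windows. Beyond the gene, the windows at 90519, 91159 and 91614 bp had means of 149 to 317 in the 3 strains and log2 fold changes over C57BL/6J of 0.01 to 0.34.

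**Figure D2:**
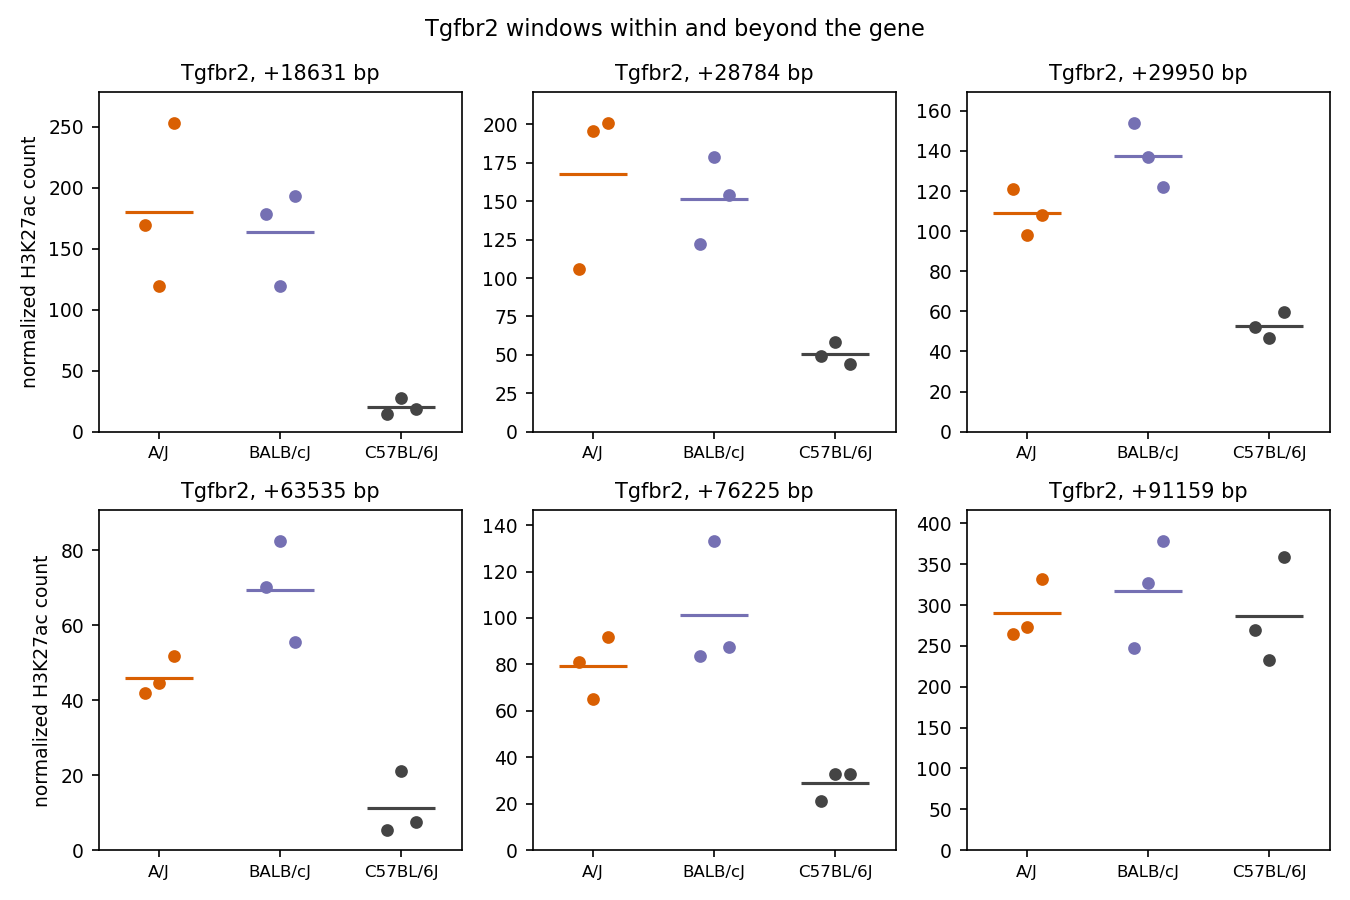
Normalized H3K27ac count (y axis) in each A/J, BALB/cJ or C57BL/6J library (points, with the mean as a bar) at 6 *Tgfbr2* windows named by their distance from the start site. In the window at 18631 bp the C57BL/6J libraries read 14.7 to 27.9 and those of the other strains 119 to 253, whereas at 91159 bp, beyond the gene, the strains overlap.

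Summed over all 49 *Tgfbr2* windows, normalized counts were 5377, 5111 and 6376 in A/J and 5870, 5489 and 7137 in BALB/cJ, against 3772, 3830 and 4671 in C57BL/6J. The ratio to C57BL/6J was 1.37 for A/J and 1.51 for BALB/cJ, and in each case the groups did not overlap (exact permutation test, two-sided, p = 0.1, the smallest that 3 against 3 allows). Because 31 of the windows overlap a neighbouring window and share its reads, the ratio was also taken, by a choice made after seeing the data, over 34 windows that do not overlap, where it was 1.51 and 1.66. Input was set beside ChIP over the called windows, which were chosen because ChIP differed there. Over the 15 windows called for A/J over C57BL/6J, ChIP gave 147 CPM (scaled to all window counts of a library) in A/J and 49.5 in C57BL/6J, where input gave 131 and 130. Over the 18 windows called for BALB/cJ over C57BL/6J, ChIP gave 221 CPM in BALB/cJ and 76.1 in C57BL/6J, where input gave 161 and 155. The C57BL/6J input is a single library with 76 and 90.5 counts in these windows. Of the 140 tested member windows, 61 had more ChIP than input CPM, against 32608 of the 60387 windows tested in all. For markers of endothelial, B, T and NK, and stellate cells, the mean of the summed counts was lowest in C57BL/6J, as for *Tgfbr2*. For hepatocyte markers it was highest there, and for monocytes and neutrophils it lay between the other strains. Over the window nearest each start site, the 2 B cell genes summed to 17.5 to 41.5 in A/J and 23.4 to 27.9 in BALB/cJ, against 9.33 to 23.3 in C57BL/6J, and the T and NK cell gene *Ncr1* read 9.06 to 20.8 in A/J and 14.6 to 20.6 in BALB/cJ, against 1.26 to 14 in C57BL/6J. For both lists every BALB/cJ library lay above every C57BL/6J library, while A/J overlapped C57BL/6J. Among all tested windows of the B cell genes, 1 of 8 was called for A/J over C57BL/6J, at *Ms4a1* and lower in A/J, and 0 of 8 for BALB/cJ over C57BL/6J. The 5 monocyte and neutrophil genes summed to 49.8 to 68.2 in A/J, 70.1 to 96.1 in BALB/cJ and 72.4 to 81.3 in C57BL/6J. Of their 11 tested windows, 1 was called for BALB/cJ over C57BL/6J, at *S100a8* and higher in BALB/cJ (1.51, edgeR adjusted p = 0.0271). For A/J over C57BL/6J it was 0 of 11. The 1 tested stellate cell window, at *Pdgfrb*, was called lower in A/J (-2.30) and BALB/cJ (-2.57) than in C57BL/6J. Over the windows nearest the start site, the 2 stellate cell genes with a window summed to 7.12 to 8.9 in A/J. Those sums were 3.65 to 11.4 in BALB/cJ and 0 to 9.31 in C57BL/6J. Of 24 tested endothelial windows, 1 was called higher and 2 lower in A/J than in C57BL/6J, and 0 for BALB/cJ over C57BL/6J. Of 8 hepatocyte windows, 0 were called. The part of these cells in the *Tgfbr2* result was not tested.

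The number of *Tgfbr2* calls depended on single libraries. For A/J over C57BL/6J it was 7 without C57BL/6J replicate 3, and 9 without A/J replicate 1 or without A/J replicate 3. For BALB/cJ over C57BL/6J it was 12 without C57BL/6J replicate 3. The windows at 18631, 28784, 63535 and 76225 bp remained called in both comparisons under every alternative run. With the replicate number as a block, *Tgfbr2* gained 2 calls for A/J over C57BL/6J (5349 bp, 1.37, adjusted p = 0.0237, and 22241 bp, 1.5, adjusted p = 0.0142, by edgeR). It gained 3 for BALB/cJ over C57BL/6J, at 5349 bp (1.21, adjusted p = 0.0461), at 51619 bp (1.13, adjusted p = 0.0265) and at -6460 bp, upstream of the start site (1.04, adjusted p = 0.0316).

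CB6F1/J carries 1 allele from each of BALB/cJ and C57BL/6J in the same nuclei, so it shows whether the strain difference at *Tgfbr2* was also present between alleles. Allelic counts are of reads that aligned perfectly and spanned a variant between both genomes. The file lists these regions as 200 bp long while the study's methods name a window of 1000 bp for this count. Which length the counts cover could not be settled, and if it is 1000 bp, neighbouring regions share reads. *Tgfbr2* had them in 40 of its 85 regions, and 9 had a mean above 16 and were tested. Of the 12 regions tested over the 10 genes, 1 was called, against 6.54% of the 4467 tested on the autosomes. The called region lay 18818 bp into *Tgfbr2* (chr9:116156445-116156645), inside the window with the largest strain difference. It had allelic counts of 50, 46.5 and 47.5 on the BALB/cJ allele, against 18.5, 11.5 and 18 on the C57BL/6J allele of the same 3 libraries. The BALB/cJ allele was higher in 3 of 3 libraries, with a log2 fold change of 1.60 (SE 0.45, edgeR adjusted p = 0.0331).

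That call was close to the threshold. With the library that supplies both alleles as a block the log2 fold change was 1.62 (SE 0.23) but the edgeR adjusted p was 0.0722, in a fit that called 0 of 4467 regions, while DESeq2 with the same block gave 1.65 (adjusted p = 0.0031). Without replicate 1, 2 or 3 the adjusted p was 0.0604, 0.176 and 0.362, with log2 fold changes of 1.68, 1.49 and 1.71. The neighbouring region at 17999 bp, under 1000 bp away, had 25.5, 32.5 and 28 counts on the BALB/cJ allele, against 1.5, 18.5 and 16.5 on the C57BL/6J allele, and was not called (1.39, SE 0.54, adjusted p = 0.168). That at 28879 bp had 35.5, 60 and 79.5 counts on the BALB/cJ allele, against 6.5, 32 and 63.5 on the C57BL/6J allele, and was not called either (0.86, SE 0.48, adjusted p = 0.441). The BALB/cJ allele had more reads in every library at both regions.

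**Figure D3:**
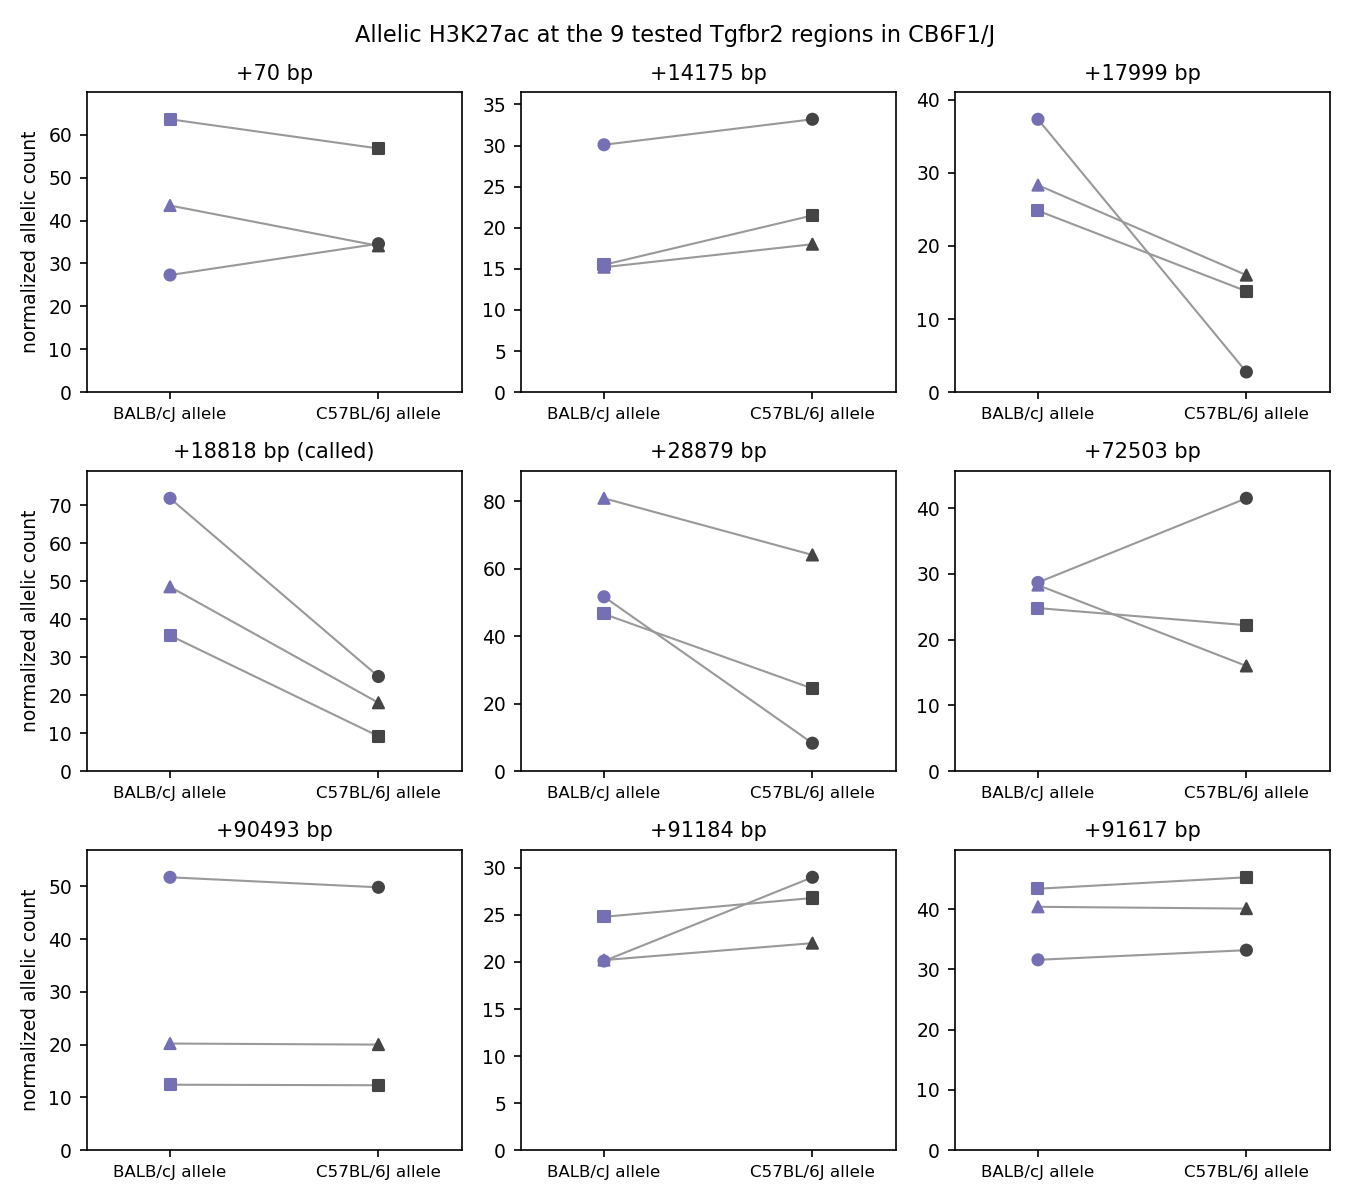
Normalized allelic H3K27ac count (y axis) on the BALB/cJ and the C57BL/6J allele at the 9 tested *Tgfbr2* regions, with lines joining the alleles of 1 CB6F1/J library. The BALB/cJ allele is higher in all 3 libraries at 17999, 18818 and 28879 bp, and at 90493 bp the alleles are nearly equal, with 36, 16 and 20 counts before scaling on the BALB/cJ allele and 36, 16 and 20.5 on the C57BL/6J allele.

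The other 6 tested regions had log2 fold changes of -0.27 to 0.11, among them the region at the start site (0.11, SE 0.38). Where these could be paired with a tested window, BALB/cJ over C57BL/6J was also only -0.05 to 0.34 between strains. Among *Tgfbr2* windows called between these strains, only those at 18631 and 28784 bp could be paired with a tested region. For the rest the alleles were not tested. Summed over all 85 *Tgfbr2* regions, the BALB/cJ allele had 356.5, 596.5 and 512 counts, against 255, 425 and 372 on the C57BL/6J allele. It took 58.3% (95% exact binomial interval 54.2 to 62.2), 58.4% (55.3 to 61.4) and 57.9% (54.6 to 61.2) of them, where it took 49.0%, 48.8% and 48.6% of all allelic counts. Without the called region, the ratio of BALB/cJ to C57BL/6J reads, scaled by library, was 1.35, 1.35 and 1.32. The intervals cover counting error only, and are too narrow if neighbouring regions share reads. The BALB/cJ allele had the higher scaled count in 29 of the 40 regions with a read and the lower one in 11. Some of these regions held as few as 4 counts, and neighbours may share reads. The same count was not made over all autosomal regions.

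The strain difference and the allele difference were then compared in 1 fit. None of the 10 member windows that could be paired with a tested region was called by edgeR, against 2.31% of 3855 windows, and 1 had an unadjusted p under 0.05. That was the window at 18631 bp, with a strain log2 fold change of 3.08 and an allele log2 fold change of 1.60, a difference of 1.44 (SE 0.55, adjusted p = 0.254). At 28784 bp the difference was 0.74 (SE 0.56, adjusted p = 0.733). At these depths neither a difference nor equality of the strain and allele effects was shown.

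*Smad6* and *Smad7*, the inhibitory SMADs, had the remaining calls in the TGF-β and BMP branch. In the last intron of *Smad6*, 2 overlapping windows (46550 and 47243 bp) were lower in A/J than in BALB/cJ. At 46550 bp the counts were 10.3, 23.7 and 23.3 in A/J, against 74.3, 36.6 and 49.7 in BALB/cJ (-1.60, SE 0.37, edgeR adjusted p = 0.0107). At 47243 bp the counts were 14.0, 2.97 and 16.2 in A/J, against 70.9, 27.5 and 38.7 in BALB/cJ, and 17.3, 18.6 and 8.82 in C57BL/6J. BALB/cJ stood apart from both other strains here, with log2 fold changes of -1.85 (SE 0.43, edgeR adjusted p = 0.00947) for A/J over BALB/cJ and 1.79 (SE 0.44, adjusted p = 0.00776) for BALB/cJ over C57BL/6J. Without BALB/cJ replicate 1, which was the highest, neither was called, and the call over C57BL/6J was also lost without C57BL/6J replicate 3 (highest adjusted p 0.151 and 0.124). The call at 46550 bp was lost without BALB/cJ replicate 1 or A/J replicate 1 (highest adjusted p 0.124). That window was also called for BALB/cJ over C57BL/6J with the replicate block (1.06, SE 0.31, edgeR adjusted p = 0.00882), but not without it (1.06, SE 0.36, adjusted p = 0.0607).

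Nearer its start site *Smad6* was lower in A/J than in C57BL/6J. The window at -1005 bp had 35.3, 50.4 and 45.9 counts in A/J, against 95.9, 53.6 and 101 in C57BL/6J (log2 fold change -1.01, SE 0.31, edgeR adjusted p = 0.0417). Over its 11 tested windows, 0 had a log2 fold change above 0 and the median was -0.56. Its windows summed to 465, 561 and 424 in A/J, against 811, 582 and 685 in C57BL/6J, which do not overlap (exact permutation p = 0.1, two-sided, the smallest possible). The A/J sums also lay below those of BALB/cJ (738, 742 and 569, same test and p). The sums of *Acvrl1* for A/J over BALB/cJ and of *Smad7* for BALB/cJ over C57BL/6J reached that p too. How often sums separate over all genes was not computed. The window 2617 bp into *Smad7* had 22.1, 35.6 and 35.6 counts in A/J, against 62.6, 62.9 and 59.8 in C57BL/6J (-1.02, SE 0.30, adjusted p = 0.034). The calls at -1005 and 2617 bp were each lost without A/J replicate 1 or 3 or without C57BL/6J replicate 1 or 3, with log2 fold changes no nearer 0 than -0.84 and -0.80. DESeq2 did not call the *Smad6* window.

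*Notch2*, the Notch receptor that binds niche ligands, had 2 called windows in its second intron, each at a low level. At 53113 bp the counts were 35.3, 35.6 and 23.3 in A/J, against 7.99, 4.66 and 11.3 in C57BL/6J (log2 fold change 1.76, SE 0.44, edgeR adjusted p = 0.0105). At 43610 bp they were 45.6, 27.5 and 40.2 in BALB/cJ, against 14.7, 21.0 and 13.2 in C57BL/6J (1.33, SE 0.39, adjusted p = 0.0246). The groups did not overlap in either comparison. The window at 53113 bp was called for BALB/cJ over C57BL/6J only with the replicate block (1.14, SE 0.43, edgeR adjusted p = 0.0466; 1.27, SE 0.46 and adjusted p = 0.0805 without it). The first call was lost without A/J replicate 1 or C57BL/6J replicate 1, and the second without BALB/cJ replicate 1 or 3 or C57BL/6J replicate 1 or 3. In the other 28 tested windows of *Notch2*, which reached a mean of 432 counts at 12130 bp, no strain comparison was called.

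**Figure D4:**
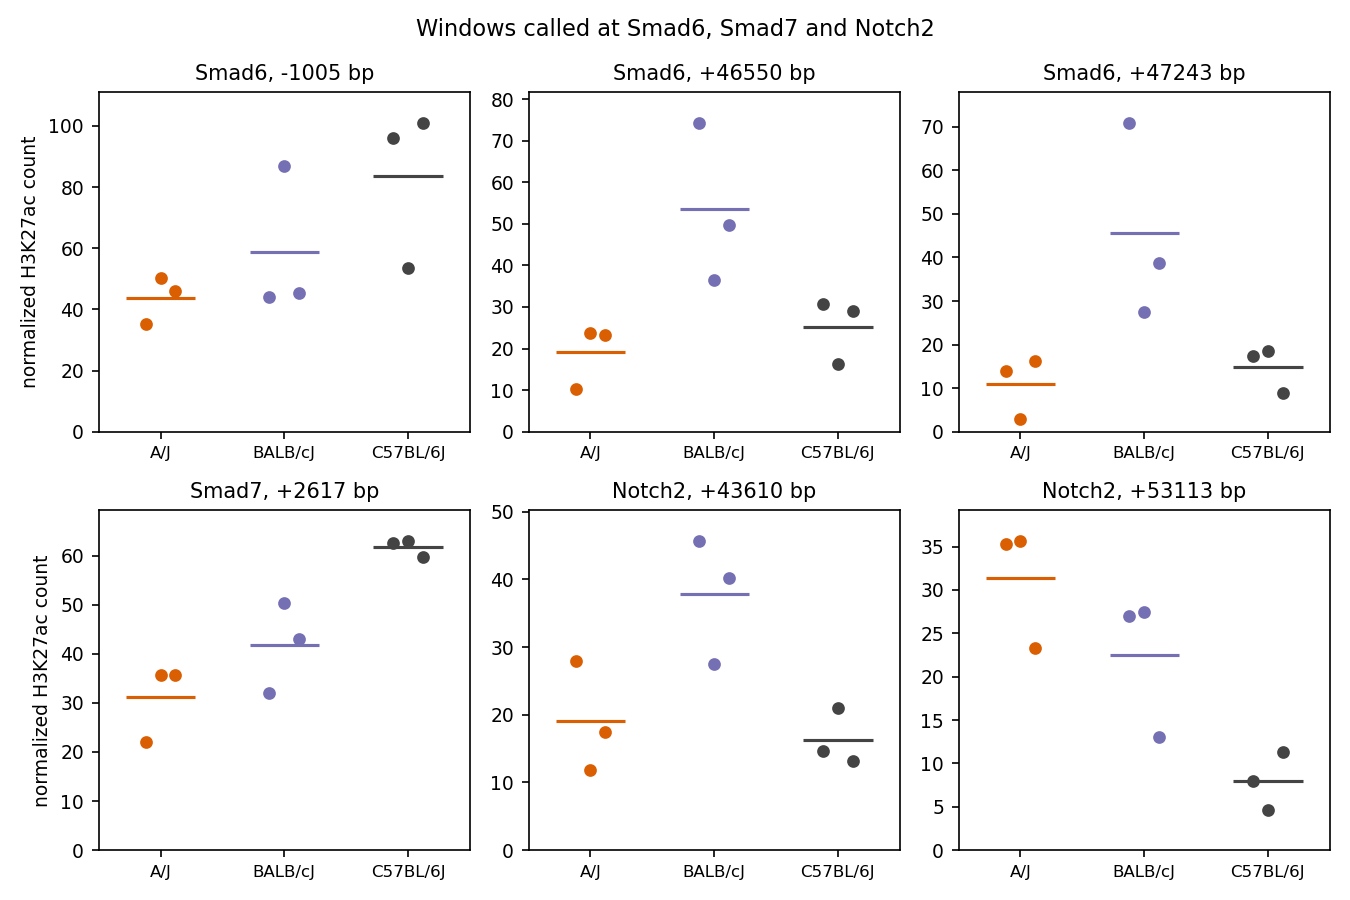
Normalized H3K27ac count (y axis) in each A/J, BALB/cJ or C57BL/6J library (points, with the mean as a bar) at the 6 called windows of *Smad6*, *Smad7* and *Notch2*, named by their distance from the start site. At 47243 bp of *Smad6* the BALB/cJ libraries, at 27.5 to 70.9, lie above those of A/J and C57BL/6J, and at 2617 bp of *Smad7* the A/J libraries, at 22.1 to 35.6, lie below those of C57BL/6J.

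No window was called at *Tgfbr1*, *Acvrl1*, *Smad3*, *Smad4*, *Rbpj* or *Hes1* by edgeR or DESeq2. *Acvrl1* encodes a BMP9 and BMP10 receptor. At 6011 bp it had 206, 131 and 166 counts in A/J, against 83.9, 116 and 89.4 in C57BL/6J, a log2 fold change of 0.84 (SE 0.26, edgeR adjusted p = 0.0444) that passed on p but not on size. Of its 6 tested windows, 2 had an unadjusted p under 0.05 in A/J over C57BL/6J, 2 in A/J over BALB/cJ and 1 in BALB/cJ over C57BL/6J. For *Tgfbr1*, the type I receptor for TGF-β, the window with the lowest p lay at -40384 bp, annotated as the 3′ UTR of another gene's transcript. It had 15.5, 14.8 and 14.2 counts in A/J, against 26.2, 25.2 and 40.9 in BALB/cJ (-1.08, SE 0.37, adjusted p = 0.124).

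For *Smad3*, the TGF-β effector, the lowest p was at 51494 bp, with 64.0, 14.8 and 35.6 counts in A/J, against 27, 11.4 and 18.3 in BALB/cJ (1.05, SE 0.40, adjusted p = 0.183). The groups overlapped there. Blocking on replicate number, the *Smad3* window was called (1.03, SE 0.32, adjusted p = 0.0265) and so was the *Tgfbr1* window (-1.10, SE 0.36, adjusted p = 0.0345), which brought the calls between A/J and BALB/cJ to 4. *Rbpj*, the DNA-binding partner of Notch, had its lowest p at -1736 bp, where BALB/cJ had 110, 73.2 and 94.2 counts, against 62.6, 55.9 and 63.6 in C57BL/6J (0.62, SE 0.29, adjusted p = 0.197). *Hes1*, a Notch target, had its lowest p at -5931 bp, with 31.7, 38.6 and 27.2 counts in A/J, against 13.5, 18.3 and 19 in BALB/cJ (0.90, SE 0.36, adjusted p = 0.221). *Smad4* had 1 tested window, at its start site, with 139, 166 and 100 counts in the A/J libraries, 137, 119 and 102 in those of BALB/cJ and 157, 135 and 70.5 in those of C57BL/6J, which overlapped.

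In each of the 3 comparisons edgeR called 0 of the 10 windows nearest a start site, 1 had an unadjusted p under 0.05, and DESeq2 called 0. *Tgfbr2* had the highest level, with means of 766 ± 92.5 for A/J, 791 ± 219 for BALB/cJ and 633 ± 99.3 for C57BL/6J (SD, n = 3 each). *Notch2* followed with 263 ± 35.8 for A/J, 241 ± 30.2 for BALB/cJ and 231 ± 20.0 for C57BL/6J, and *Rbpj* with 242 ± 37.9 for A/J, 216 ± 28.5 for BALB/cJ and 188 ± 23.9 for C57BL/6J. The levels of *Notch2* and *Rbpj* overlap within their spread. *Smad7*, *Tgfbr1*, *Hes1*, *Smad3*, *Smad4*, *Acvrl1* and *Smad6* lay between 87.9 and 168 in every strain. All windows are 1000 bp long, so these levels are per equal length. The *Acvrl1* window lies 4709 bp into the gene, as no nearer one was assigned to it, and had 146, 166 and 158 counts in A/J, against 127, 59.5 and 118 in BALB/cJ and 105, 97.8 and 94.5 in C57BL/6J.

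**Figure D5:**
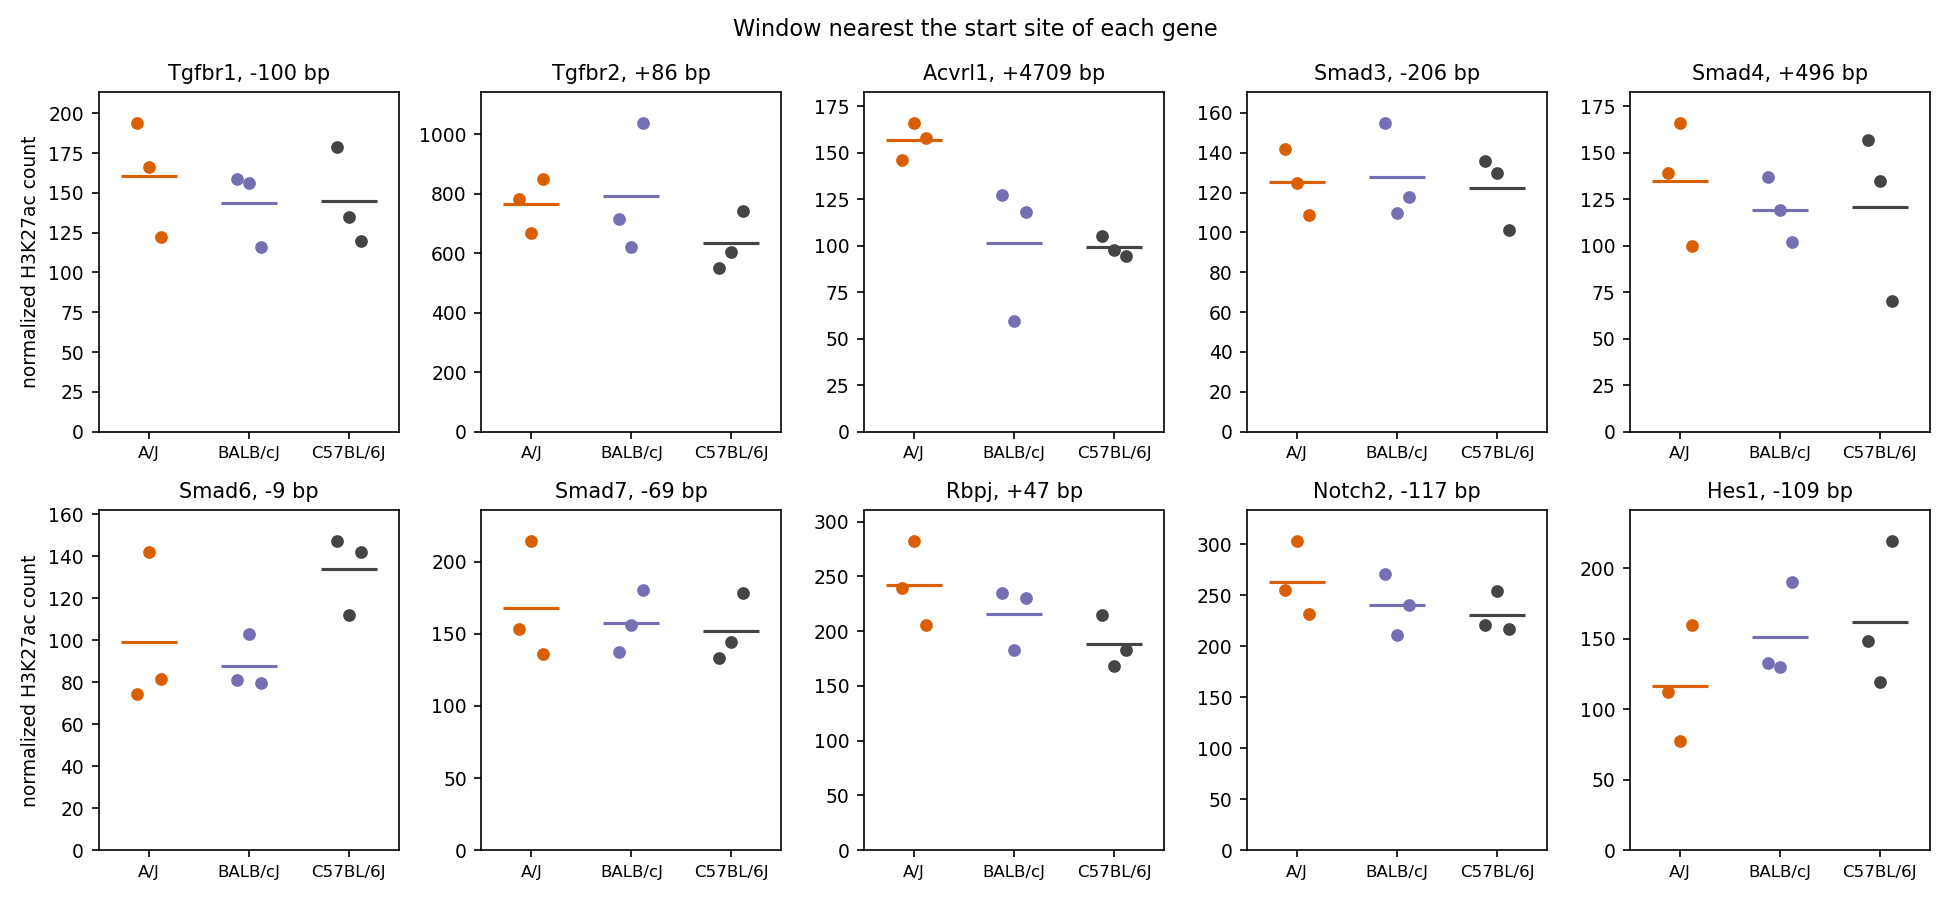
Normalized H3K27ac count (y axis) in each A/J, BALB/cJ or C57BL/6J library (points, with the mean as a bar) at the window nearest the start site of each of the 10 genes, with its distance from that site. *Tgfbr2* reads 550 to 1038 and no gene differs enough between strains to be called.

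In the hybrid, *Notch2*, *Tgfbr1*, *Smad3*, *Smad6* and *Smad7* had 0 allelic reads in all of their 60, 46, 44, 44 and 27 regions. Reads aligned perfectly to the C57BL/6J genome there, 4825.5 of them at *Notch2* and 1099.5 at *Smad6*, so the signal was present but the alleles could not be compared. The called *Notch2* and *Smad6* windows between BALB/cJ and C57BL/6J therefore have no allelic counterpart. *Acvrl1* had 16 of 25 regions with an allelic read. Its highest region, at 16403 bp, had 20, 38.5 and 36.5 counts on the BALB/cJ allele, against 12, 48.5 and 30.5 on the C57BL/6J allele (0.16, SE 0.42, edgeR adjusted p = 0.999). Summed over *Acvrl1*, the BALB/cJ allele took 45.5% (95% exact interval 37.3 to 54.3), 46.4% (40.6 to 52.2) and 58.6% (52.7 to 64.7) of the reads, so the libraries did not point one way. *Hes1*, *Rbpj* and *Smad4* had 28, 23.5 and 23.5 allelic counts in all, too few to test. Their highest regions had 4.5, 0 and 0 counts on the BALB/cJ allele, against 0.5, 7 and 1.5 on the C57BL/6J allele (*Hes1*, -6972 bp), 6, 0 and 0 against 3.5, 0 and 0 (*Rbpj*, -8733 bp), and 3, 2 and 0.5 against 6, 0.5 and 2.5 (*Smad4*, 10078 bp).

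Among 86 further genes of the same pathways, 65 had a tested window, with 515 windows in all. Between A/J and BALB/cJ 9 of these windows were higher and 6 lower, which is 2.91%, against 3.63% of all windows. Between A/J and C57BL/6J 15 were higher and 24 lower (7.57%, against 7.09%), and between BALB/cJ and C57BL/6J 21 were higher and 17 lower (7.38%, against 8.56%). The shares were near those over all windows. The median log2 fold change was 0.01, 0.00 and 0.00. *Adam17*, which encodes a protease of the kind that cleaves Notch and other membrane proteins, was lower in both strains, with 75.1, 77.1 and 75.7 counts in A/J and 77.7, 96.1 and 70.8 in BALB/cJ, against 369, 293 and 476 in C57BL/6J at 4943 bp. The log2 fold changes over C57BL/6J were -2.33 (SE 0.24, edgeR adjusted p = 9.63e-08) for A/J and -2.26 (SE 0.23, adjusted p = 1.4e-07) for BALB/cJ.

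Of the wider list's other leading genes, *Bmpr1b*, a BMP type I receptor, was lower in A/J (-3.53) and BALB/cJ (-3.29) than in C57BL/6J at -108828 bp. *Spen*, a co-repressor that binds RBPJ, was lower in A/J (-2.24) and BALB/cJ (-2.39) than in C57BL/6J at 24157 bp. *Acvr1*, another BMP and activin type I receptor, was higher in A/J (3.84) and BALB/cJ (2.21) than in C57BL/6J at 71648 bp. Between A/J and BALB/cJ, *Tgfb3*, a TGF-β ligand, was lower in A/J at 105297 bp (-1.80), *Fbxw7*, a ubiquitin ligase subunit that acts on Notch, was lower at -46014 bp (-2.56) and *Gdf15*, a distant TGF-β family member, was higher at -11776 bp (3.16). Assignment is to the nearest start site, so a distant window need not act on the gene it is named for.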

How the data were processed

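H3K27ac ChIP-seq of sorted Kupffer cells was measured in 3 inbred strains and the hybrid CB6F1/J. Per the study's methods, the authors aligned reads with Bowtie2 to strain genomes built on mm10, moved them to mm10 positions, and counted reads with HOMER over merged accessible regions of 1000 bp. The deposited parental values are raw counts. Replicate 2 of each strain, the inputs and the F1 allele columns were deposited by the authors in steps of 0.5, treated as estimated counts and rounded before testing. Tool versions are not given in the sources used here. Reads aligned to genomes that differ between strains can be lost unequally, and F1 allele counts exist only where a variant is spanned.

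Libraries were normalized by TMM, windows with a mean normalized count above 16 were kept, and edgeR 4.0.16 (R 4.3.3) fitted the 9 parental libraries together. F1 allele columns (autosomes) and the difference between strain and allele effects, with the F1 region nearest the window's centre within 500 bp, were fitted likewise. Calls needed both an absolute log2 fold change above 1 and adjusted p under 0.05. The code was tested on simulated data. Described windows were the one nearest each start site, that with the lowest p per gene, and every called one. In the F1 they were the region with the highest mean and every called one, besides which regions neighbouring the called one and the next largest difference were described after their values were seen. The genes, lists and markers were chosen with earlier results of these data known.

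Deviations of libraries with the same replicate number correlated at 0.227 to 0.414 between strains, and those of the 2 alleles of 1 library at 0.168 to 0.182, so the numbers pair the samples, and the fit with the block is given where it changes a call. Alternatives were DESeq2 1.42.0, other scalings and filters, the block, and leaving out each library.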

Additional observations from a re-analysis of the deposited data

How the results depend on the processing

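The direction of all 41 called values (40 between strains and 1 between alleles) was kept in every alternative that tested them. They had been selected for an absolute log2 fold change above 1, and the alternatives reuse the same counts. A reversal was therefore unlikely from the start. Of 660 repeats, 573 also kept the call. Windows that failed the count filter of an alternative are left out of the 660. With a mean above 32, for example, 26 of the 40 calls between strains were repeated. Of the 41, 13 were never lost where they were tested, all of them at *Tgfbr2*. Among the 13, BALB/cJ over C57BL/6J at 6142 bp had 16 repeats, against 17 at 18631 bp. Leaving out C57BL/6J replicate 3 cost most, with 19 of 40 calls between strains lost. Leaving out 1 library at a time gave 1 to 2 member windows called for A/J over BALB/cJ, 8 to 17 for A/J over C57BL/6J, 12 to 22 for BALB/cJ over C57BL/6J, and 0 to 0 between alleles. For A/J over C57BL/6J it left 8 without C57BL/6J replicate 3, 9 without A/J replicate 1, and 10 without A/J replicate 3 or without C57BL/6J replicate 1, and for BALB/cJ over C57BL/6J 12 without C57BL/6J replicate 3. Over all regions, 292 were called between alleles, against 0 with the block, 515 with no filter, 456 with a mean above 8, and 96 and 56 without replicate 2 and 3. Over all windows, calls for A/J over C57BL/6J came to 4282, against 2719 without C57BL/6J replicate 3 and 2737 with a mean above 32, for A/J over BALB/cJ to 2192, against 1331 without BALB/cJ replicate 3, and for BALB/cJ over C57BL/6J to 5171, against 3328 without C57BL/6J replicate 3 and 3267 with a mean above 32. Keeping only windows with a mean above 32 left fewer to test, with 1 call for A/J over BALB/cJ and 13 for BALB/cJ over C57BL/6J. With the replicate block, 4 windows were called for A/J over BALB/cJ and 0 regions between alleles, and the block took away no other call. It added calls without moving those counts by over 1.5 times, to 20 for A/J over C57BL/6J and 25 for BALB/cJ over C57BL/6J. The block also lowered the variation between libraries estimated for the strain fit as a whole. The share of all windows called between strains with the block is not given here. Whether the member calls gained with it exceed that share was therefore not tested. The strain against allele difference had 0 member calls under every alternative run, and 89 over all windows, which fell to 53 without C57BL/6J replicate 1. DESeq2 with the block was added after seeing the data and called 1 region. Of 408 member regions in the F1, 67 had an allelic count and 12 could be tested. Low windows such as those of *Notch2* rest on few counts per library.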
